A study of Drosophila melanogaster with 36 samples.

Results

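Of the 56 piRNA clusters in the deposited tables of fly heads, 47 are described here in both of their column sets, after 9 clusters (clu-10, 22, 26, 41, 44, 48, 51, 70 and 90) were set aside. Of the values that were called, averaged at least 10 CPM and changed in one direction at all 6 time points, those 9 clusters held the 5 that rose most in old heads and the 5 that fell most. These 47 were thus chosen by a measured value, the old minus young difference, so their age values are given as a description and support nothing. Each cluster has a first-set and a second-set value in every library. The files do not say what tells the sets apart, where a cluster lies or which transposons it holds, so clusters are named by number only and no sequence is shown.

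Small RNA came from whole heads of female w1118 flies, 400 heads pooled per sample, all of this one genotype. Young flies were 5 days old and old flies 55 days. Each age was sampled at zeitgeber times ZT0, ZT4, ZT8, ZT12, ZT16 and ZT20 with 3 replicates, which gave 12 groups and 36 libraries. The labels give no treatment, collection date or sequencing batch. They do not say whether replicates were separate cohorts, so the p-values here reflect the spread among the sequenced samples, which may be technical. Pooled whole heads mix neurons, photoreceptors, glia, fat body and other cells, and in such bulk samples fewer cells of a type and less RNA per cell cannot be told apart.

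Piwi-interacting RNAs are small RNAs loaded onto the Piwi-clade proteins Piwi, Aubergine and Argonaute3, which they guide to transposon transcripts for slicing or to transposon loci for silencing. In flies most are cut from long precursors of piRNA clusters, loci rich in transposon remnants that are read from a single strand or from both. The pathway is best known from the ovary, where germ cells and the surrounding follicle cells use different clusters.

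The piRNA tables summed to between 139322 and 441447 counts per library. The first set took nearly all of them, with 263862 ± 56217 counts (SD, n = 36), and the second set 3512 ± 2975. Levels below are the deposited RPM, which the authors scaled to a library total, unless a share or count is named. The head-type miRNAs miR-124-3p (neurons) and miR-210-3p and miR-7-5p (photoreceptors) were present in every library, summing to between 13200 and 38600 CPM, counts scaled to the miRNA total of the library.

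In the young, replicate 3 of ZT4 and replicate 3 of ZT8, and in the old, replicate 1 of ZT0 stood apart, and these 3 libraries are marked throughout. They were singled out by measured values in earlier work on these data, so they are described and not tested as a group. Their second sets held 14051, 13548 and 11526 counts, against 1372 to 4295 in the other 33 libraries. The second set was 6.06%, 5.96% and 4.11% of all their piRNA counts, against 0.499% to 1.63% elsewhere. All 4 miRNAs of an ovary list (miR-318-3p, miR-989-3p, miR-994-5p and miR-994-3p) had their 3 highest values there. The list summed to 552, 889 and 723 CPM in the 3 libraries and to 11.4 to 57 CPM in the others, where miR-994-3p was at 0 in 22 of 33. The summed head-type miRNAs of the 3 libraries, 30800 to 37200 CPM, lay within the range of the others. The part of ovary RNA in the results below was not tested.

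The first and the second set were led by different clusters. Among the 47, 6 clusters (clu-91, 53, 21, 87, 9 and 76) made up 96.8% ± 1.84 of the first-set counts (SD, n = 36). In the second set the 6 leading clusters were clu-75, 61, 21, 57, 40 and 49, with 68.6% ± 1.68 of the counts. Clu-21 was the 1 cluster in both lists.

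The first set was concentrated in a pair of clusters. Clu-91 held 46.9% ± 3.19 of the first-set counts of the 47 and clu-53 held 35.5% ± 2.58, together 82.4% ± 2.76. Clu-91 ranked first in 34 libraries and clu-53 in the other 2, young ZT0 replicate 1 and young ZT8 replicate 3. In RPM clu-91 stood at 241, 292 and 361 (lowest, median, highest of 18 young libraries) and at 242, 297 and 440 in the old. Clu-53 stood at 185, 214 and 326 RPM in the young and 192, 222 and 253 in the old. The 2 ages overlapped for both clusters. Clu-21 ranked 3 in every library, at 46, 59.8 and 73.1 RPM in the young and 28.1, 40.5 and 61.5 in the old. Clu-87, clu-9 and clu-76 held 3.30%, 2.19% and 0.950% of the counts. All 47 together were 16.3% ± 0.988 of the whole first set, because clu-51 and clu-90 of the excluded clusters made up 83.4% ± 1.10 of it.

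The second set was spread more evenly. Clu-75 was the leading cluster, with 20.7% ± 5.97 of the second-set counts of the 47, and ranked first in 30 libraries. Clu-61 held 15.3% ± 2.99, clu-21 11.7% ± 3.97, clu-57 9.84% ± 4.04, clu-40 5.84% ± 1.70 and clu-49 5.25% ± 3.30. Clu-75 itself varied little in RPM, at 4.02, 6.42 and 8.26 in the young and 4.83, 6.50 and 8.24 in the old. Clu-61 stood at 3.25, 4.61 and 55.2 RPM in the young and 2.62, 3.93 and 28.4 in the old, where the highest value of each age came from a marked library. Without those 3 libraries its range was 3.25 to 9.16 in the young and 2.62 to 6.47 in the old. The 47 clusters made up 72.6% ± 7.26 of the whole second set in young heads and 80.8% ± 3.03 in old heads. That share is the complement of the excluded clusters and moves with the values that chose them.

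**Figure D1:**
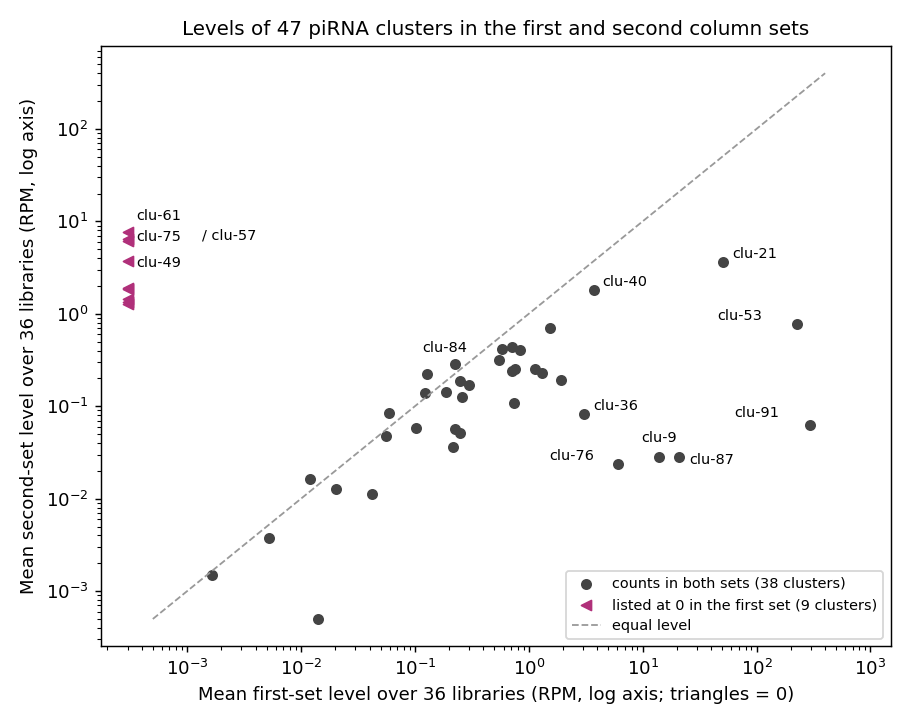
Mean level of each of the 47 clusters over 36 libraries, first set on the x axis and second set on the y axis, both in RPM on log axes. The dashed line marks equal levels, and triangles at the left edge are the 9 clusters listed at 0 in the first set, led by clu-61, clu-75, clu-57 and clu-49. Clu-91 and clu-53 lie farthest right, with mean first-set levels of 297 and 225.6 RPM.

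In all 36 libraries 9 clusters were listed at 0 in the first set, clu-14, 49, 57, 61, 66, 73, 75, 79 and 86, and 4 of the 6 leading clusters of the second set were among them. Whether such a 0 is a measured absence or a column that does not apply to the cluster is not stated in the sources used here, so no ratio is given. The second-set means of these 9 clusters ran from 84.7 counts for clu-73 to 488.2 for clu-61. No cluster was at 0 in the second set in every library.

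The other 38 clusters had counts in both sets. The ratio of first-set to second-set counts, each with 0.5 added, had a median over libraries above 1 in 30 of the 38, below 1 in 6, and between 0.5 and 2 in 20. It was above 10 in 7. Among clusters with at least 10 counts on average in either set, the highest median ratios on the log2 scale were 12.2 for clu-91, 9.78 for clu-53, 9.04 for clu-87 and 8.64 for clu-9. The lowest were -1.11 for clu-84, -0.87 for clu-32, -0.08 for clu-72 and 0.19 for clu-71, with SDs over libraries of 0.931, 0.886, 0.684 and 0.537. The clusters of extreme ratio rest on few second-set counts, on average 4.58 for clu-91, 2.08 for clu-87 and 2.10 for clu-9.

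A within-library test compared the share each cluster took of its set, which the choice of clusters did not use. It used edgeR's quasi-likelihood test on rounded counts with library as a block, set totals as library sizes and Benjamini-Hochberg adjustment. Over all clusters, 7 of 50 tested (14%) had the larger share in the first set and 43 (86%) in the second. Of the 41 members tested, 5 had the larger share in the first set, clu-91, 53, 87, 9 and 76, and 36 in the second. Those 36 include the 9 clusters listed at 0 in the first set, whose side is fixed by the 0, which leaves 27 others. The log2 difference of shares was 5.84 ± 0.177 (SE) for clu-91, with an adjusted p of 1.24e-30 in edgeR. It was 3.04 ± 0.164 for clu-53 and 1.68 ± 0.260 for clu-76, the smallest of the 5. Clu-21, ranked 3 in the first set by counts, still had the larger share in the second set, by 2.67 on the log2 scale (first minus second -2.67 ± 0.153, adjusted p 1.13e-20 in edgeR). Over the 47 clusters alone its mean shares lay closer, at 7.98% of the first set and 11.7% of the second. In the 3 marked libraries these shares had the other order, 8.12%, 7.13% and 4.76% in the first set against 0.916%, 2.09% and 1.81% in the second. Shares within a set are tied to each other, and the excluded clu-51 and clu-90 alone fill most of the first. When shares were taken over the 47 clusters alone, 6 had the larger share in the first set and 33 in the second. With TMM factors, which assume that most clusters keep their share, the counts were 11 and 27, and with RLE factors 14 and 23. The second-set counts of these alternatives were not reduced by the 9 clusters listed at 0, so no majority is read from them.

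The ratio of the 2 sets is given by age for the clusters that led the first set and for others, mainly those that moved most. Without the 3 marked libraries, the median ratio of clu-91 was 8240 in the young (range 5930 to 13600) and 3260 in the old (2020 to 5060). These ranges did not overlap. The second-set level of clu-91 moved the other way, at 0.0120, 0.0256 and 0.0447 RPM in the young and 0.0487, 0.0804 and 0.148 in the old, while its first-set level overlapped between the ages. For clu-53 the median ratio was 1410 in the young and 783 in the old, for clu-87 it was 910 and 458, for clu-9 815 and 328, for clu-76 314 and 179, for clu-21 15.9 and 11.5, and for clu-36 57 and 28.8, with overlapping ranges in each case. Clu-38 and clu-84 were also lower in the old, from 2.39 to 1.05 and from 0.593 to 0.281. The largest moves the other way were those of clu-47 from 0.977 to 1.74, clu-85 from 4.39 to 7.30 and clu-32 from 0.394 to 0.609. Clu-40 stood at 1.90 in both ages, with a range of 1.78 to 2.25 in the young and 1.63 to 2.20 in the old. These are descriptions, since age chose the clusters, and the second-set values of clu-91, 87, 9, 76 and 38 were too low for the age fit.

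The 3 marked libraries stood above their group mates in a large part of the member values and near them in others. The fold is the RPM of the library over the mean RPM of the other 2 replicates of its group, each with 0.02 RPM added. In the second set 24 of 36 members that passed the count filter were over 2-fold higher in all 3 libraries, 9 were within 2-fold in all 3, and 3 did neither. In the first set 17 of 32 were over 2-fold higher in all 3, 10 were within 2-fold and 5 did neither. Excluded clusters were over 2-fold higher in all 3 as well, clu-41, 44, 48 and 70 in the first set and clu-48 and 70 in the second. The excess is thus not particular to the members. Of the 68 member values 14 passed the count filter through these 3 libraries alone, 7 in each set, and all 14 were over 2-fold higher in all 3. Without those 14, 10 of 25 values in the first set and 17 of 29 in the second were over 2-fold higher in all 3, and 10 and 9 were within 2-fold.

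**Figure D2:**
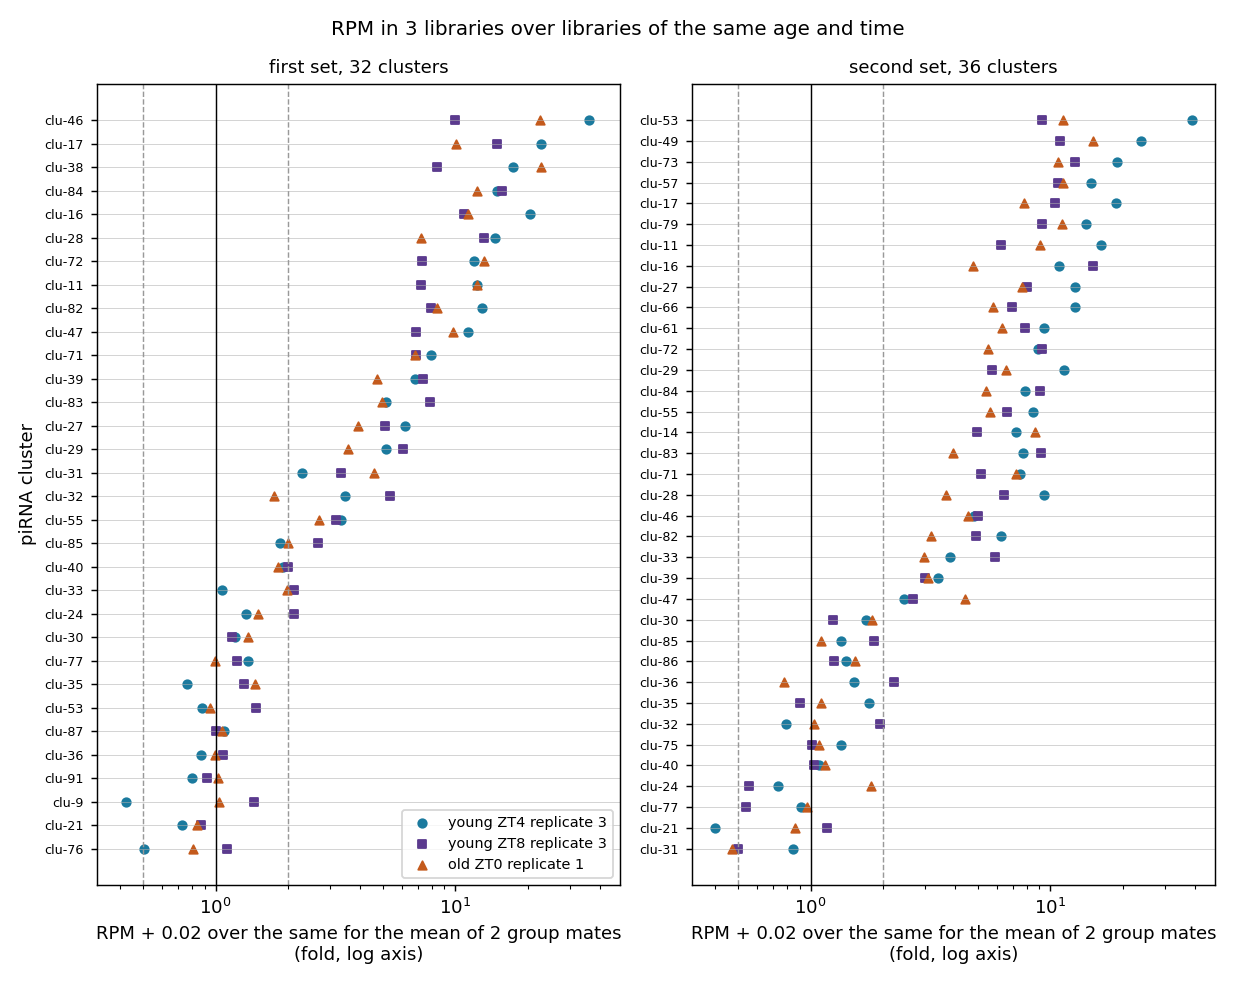
Fold of each tested cluster in the 3 marked libraries over the mean of their group mates (RPM + 0.02, log axis), first set at left and second set at right. Circles are young ZT4 replicate 3, squares young ZT8 replicate 3 and triangles old ZT0 replicate 1, and dashed lines mark 0.5-fold and 2-fold. In both panels a long run of clusters lies beyond 2-fold in all 3 libraries, while clu-91, 53, 87 and 36 in the first set and clu-75, 40 and 35 in the second stay near 1.

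Of the 9 clusters listed at 0 in the first set, 7 were over 2-fold higher in all 3 libraries. Clu-49 stood at 33.7 RPM in young ZT4 replicate 3, against 1.31 and 1.47 in its mates. It reached 35.8 RPM in young ZT8 replicate 3, against 1.04 and 5.43, and 20.0 in old ZT0 replicate 1, against 1.13 and 1.47. Clu-57 stood at 46.9, 59.0 and 25.4 RPM in the same libraries, with mates between 2.19 and 8.67. The exceptions among the 9 were clu-75, at 8.26, 6.88 and 6.16 RPM with mates between 4.83 and 7.30, and clu-86, at 2.08, 1.87 and 1.57 with mates between 0.922 and 1.66. As shares of the second-set counts of the 47, clu-57 reached 22.2%, 24.2% and 19.1% in the 3 libraries and clu-75 held 3.92%, 2.82% and 4.62%, against a median of 23.2% in the others. The higher of the mate values at young ZT8 came from replicate 1, whose ovary list stood at 53.3 CPM. The unmarked libraries with a higher list sum were old ZT20 replicate 1 at 57 CPM and old ZT0 replicate 2 at 54.4 CPM. Clu-49 was at 1.29 and 1.13 RPM in them. Of the list members, only miR-989-3p was higher in young ZT8 replicate 1, with 6.84 CPM against 0.417 and 0.564 in these old libraries. MiR-318-3p, which made up most of each sum, and miR-994-5p were lower in that young library. Whether clu-49 follows the list or any of its members was not tested.

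The 2 sets of a cluster did not always move together in these libraries. Clu-53 was 38.8-fold, 9.23-fold and 11.3-fold higher in its second set (7.25, 7.39 and 4.47 RPM) and within 2-fold in its first set (188, 326 and 205 RPM). Clu-31 did the reverse, 2.29-fold, 3.34-fold and 4.58-fold higher in its first set and 0.845-fold, 0.499-fold and 0.469-fold in its second. Of the 27 clusters tested in both sets, 15 had both over 2-fold higher in all 3, among them clu-17, clu-46 and clu-84. Some of the 15 passed the count filter only through these libraries, in both sets for clu-28, 29, 46, 72 and 83. For those the excess was fixed by the filter. In 4 clusters, clu-30, 35, 40 and 77, both stayed within 2-fold. In its second set clu-40 ranged from 1.56 to 2.10 RPM over the 18 young libraries and from 1.57 to 2.03 over the old.

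**Figure D3:**
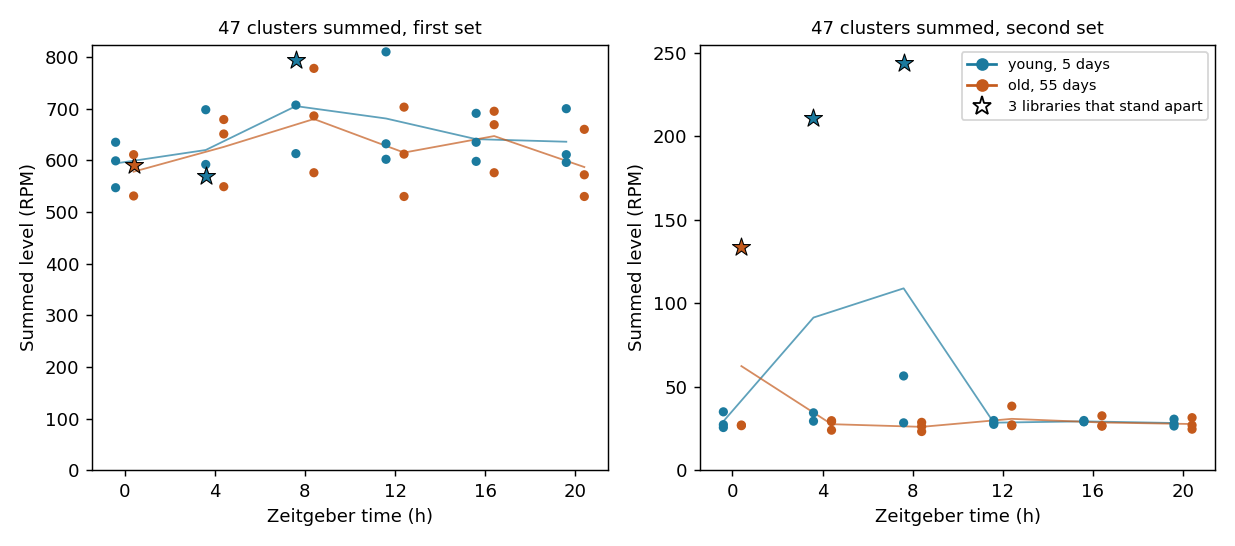
Summed RPM of the 47 clusters in each library by zeitgeber time, first set at left and second set at right, with young in blue, old in orange, lines through group means and stars for the 3 marked libraries. First-set sums lie between 530 and 810 RPM with the stars inside, whereas the second-set stars at 211, 244 and 134 RPM stand above all other libraries, the next being 56.5 RPM.

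Time of day was not used to choose the clusters, so rhythms were tested. The test fitted a 24 h sinusoid to each age with edgeR's quasi-likelihood test over all 85 cluster values that passed the filter, 68 of them members. In young heads 38 of 85 (44.7%) were called at an adjusted p under 0.05, and 33 of the 68 members were, 15 in the first set and 18 in the second. Fitted peak-to-trough differences of the 33 ran from 0.56 to 3.91 on the log2 scale, with a median of 1.65. The share of members called is close to that over all values.

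These calls depended most on 2 libraries, and their number also changed with the method. With all libraries kept, DESeq2 called 11 members and limma 0. Without the 3 marked libraries, 2 of 71 values (2.82%) were called in young heads, 1 of them among the 54 members, the second set of clu-53, and 5 of the 54 had an unadjusted p under 0.05. Leaving out young ZT8 replicate 3 alone left 1 member called, leaving out young ZT4 replicate 3 alone left 7, and leaving out young ZT20 replicate 1 left 20. In 30 of the 33 called values these 2 marked young libraries were the highest of all 18 in RPM. In 29 of the 33 the value was over 2-fold higher in all 3 marked libraries. Their fitted peaks lay between ZT4 and ZT8, the times of those 2 libraries. Among the 29, both sets of clu-28, clu-29 and clu-72 passed the count filter only through the marked libraries. So did the second sets of clu-16 and clu-83 and the first sets of clu-38, clu-46 and clu-82. The counts of 30 and 29 above include them. For such values the excess there was fixed by the filter, so their calls and peaks support nothing.

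The other 4 called values, the first sets of clu-35, clu-40 and clu-77 and the second set of clu-40, had fitted peaks between ZT17.0 and ZT19.0. All 4 were within 2-fold in the marked libraries. The TMM factors of the 3 libraries were 3.20, 2.71 and 2.40, against 0.525 to 1.34 in the others, which lowers every scaled value in them. With library totals alone in place of those factors, none of the 4 passed, with adjusted p-values of 0.507, 0.330, 0.540 and 0.296 in edgeR, and the peak of clu-40 in the first set moved to ZT4.0. Without the 3 libraries, with the same values kept in the fit, none of the 4 was called. Their differences were then 0.54, 0.35, 0.75 and 0.42 on the log2 scale with unadjusted p-values of 0.0257, 0.0418, 0.01 and 0.0197 in edgeR.

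The second set of clu-53 had the smallest p. In RPM it stood at 0.105, 0.166 and 7.39 in the 18 young libraries, the lowest, median and highest. At ZT4 its 3 replicates were 0.193, 0.142 and 7.25 RPM and at ZT8 they were 1.46, 0.106 and 7.39, while every other young library lay at or under 0.343. Only 3 of the 18 young libraries were thus high, and the ZT4 and ZT8 groups each held a library as low as the other times. The fitted difference was 3.35 on the log2 scale with a peak at ZT5.8 (adjusted p 0.00338 in edgeR). Without the 3 libraries it was 1.71 with a peak at ZT6.6 (adjusted p 0.0439 in edgeR), and with 6 libraries left out, young ZT8 replicate 1 among them, no member was called. The first set of clu-53 did not share the pattern, at 231, 199 and 188 RPM at ZT4 and 250, 192 and 326 at ZT8.

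The next values by p were the second set of clu-29, both sets of clu-17 and the first set of clu-46. Those of clu-29 and clu-46 passed the count filter only through the marked libraries. In the second set of clu-17, ZT4 replicates stood at 0.104, 0.111 and 2.38 RPM and ZT8 replicates at 0.421, 0.112 and 2.96, and the fitted difference of 2.36 fell to 0.72 without the 3 libraries with the same values kept in the fit. In its first set the replicates were 0.161, 0.149 and 3.97 RPM at ZT4 and 0.630, 0.127 and 5.92 at ZT8, with a difference of 2.44 that fell to 0.56. In the first set of clu-46 they were 0.0344, 0.0448 and 2.12 RPM and 0.551, 0.0610 and 3.24, with a difference of 3.91 that fell to 2.17. In each of these the third replicate of ZT4 and of ZT8 was far above the rest and the first replicate of ZT8 came next. With the same 68 member values kept in the fit and the 3 libraries left out, none was called in young heads, 10 had an unadjusted p under 0.05, and the median difference of the 33 fell to 0.56.

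**Figure D4:**
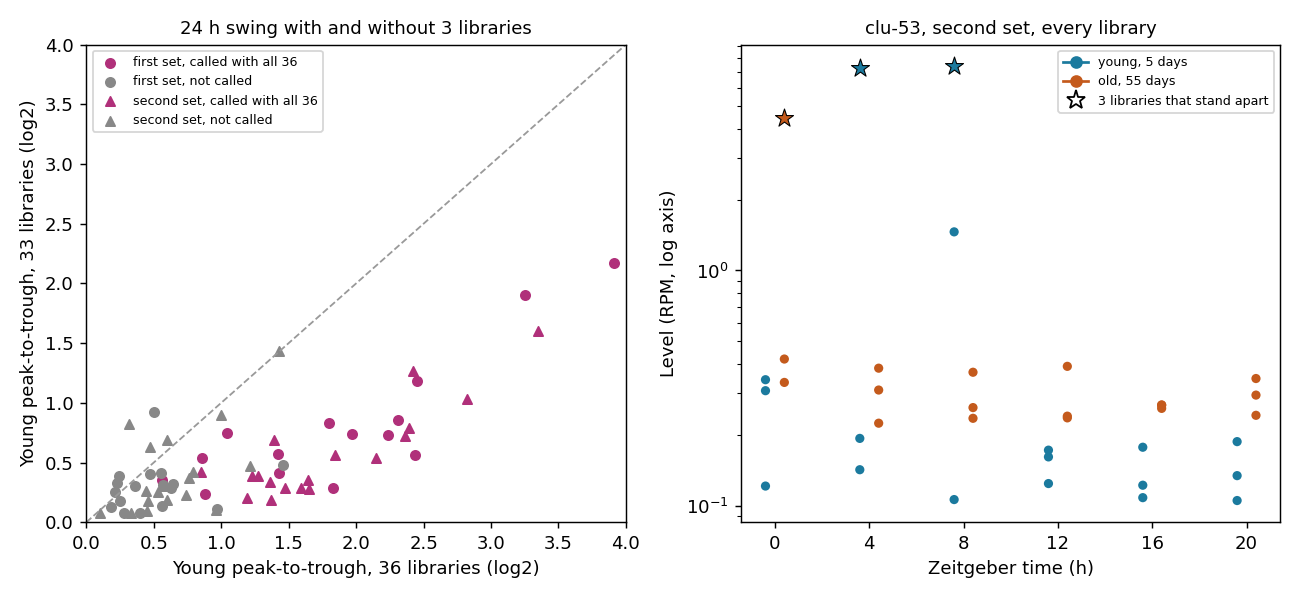
Left, fitted 24 h peak-to-trough difference in young heads (log2) with all 36 libraries on the x axis and without the 3 marked libraries on the y axis, the same 68 member values in both fits, circles for the first set, triangles for the second and magenta for values called with all libraries. Nearly all magenta points lie below the dashed line of equality. Right, RPM of the second set of clu-53 in every library by zeitgeber time on a log axis, where the stars reach 7.25, 7.39 and 4.47 RPM.

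In old heads edgeR called none of the 85 values (0%). The unadjusted p was under 0.05 in 10, of which 8 were members. DESeq2 and limma called 0 members as well. The 3 members with the smallest p were the first sets of clu-38, clu-46 and clu-16, each with an adjusted p of 0.186 in edgeR. Their fitted differences were 3.68, 2.66 and 1.88 on the log2 scale with peaks at ZT0.5, ZT23.6 and ZT23.6. Each was high in old ZT0 replicate 1, at 1.40, 1.60 and 1.83 RPM, while the other old libraries stood at or under 0.0841, 0.0795 and 0.173. Without the 3 marked libraries the differences were 0.60, 0.32 and 0.61. With time point as a factor in place of the cosine, 3 members were called in old heads, the first sets of clu-38, clu-46 and clu-84, with adjusted p-values of 0.0318, 0.0435 and 0.0462 in edgeR. The number called over all 85 values in that fit is not given here, so nothing particular to the members is read from these 3. The first sets of clu-38 and clu-46 passed the filter only through the marked libraries, and clu-84 was at 1.13 RPM in old ZT0 replicate 1 and at or under 0.105 in the other old libraries. In the same fit without the 3 libraries, run after seeing the data, none of the 68 was called in old heads, the adjusted p of each of these 3 was 0.995 in edgeR, and 3 members had an unadjusted p under 0.05.

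The rhythm differed between the ages in 1 of 85 values (1.18%) by the interaction terms, the second set of clu-29, with an adjusted p of 0.0463 in edgeR. Its replicates stood at 0.0355, 0.0250 and 0.555 RPM at young ZT4, 0.151, 0.0485 and 0.667 at young ZT8 and 0.359, 0.0338 and 0.0420 at old ZT0. Its mean was 5.50 counts per library, and it passed the filter only through the marked libraries. No member differed without them.

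Age had chosen which clusters remain, so the following values are a description and nothing is read from the counts. Over all values, 9 of 85 (10.6%) were called higher in old heads and 13 (15.3%) lower. Of the 68 member values 3 were called higher and 7 lower, and the median old minus young difference was 0.00 on the log2 scale, against 0.01 over all 85. In 55 of the 68 the difference was smaller than 0.5 in size. The last cluster set aside on the rising side, clu-22, stood at 0.58 in its first set, and the nearest member that met the same conditions was the first set of clu-77 at 0.51. On the falling side the first set of clu-70 stood at -1.59 and the nearest member that met them, the second set of clu-47, at -1.16. Beyond these limits lay 3 members that did not meet them. The second set of clu-36 was at 1.02 and higher in old heads at 5 time points, the first set of clu-38 was at -1.75 and higher at 1, and the second set of clu-83 was at 0.65, under 10 CPM and not called.

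Among members with a mean of at least 10 CPM in the fit, the highest values of the first set were clu-32 and clu-77 at 0.51, clu-33 at 0.36 and clu-24 at 0.25. The lowest were clu-38 at -1.75 ± 0.638 (SE), clu-84 at -1.11 ± 0.380, clu-46 at -0.91 ± 0.558 and clu-47 at -0.65 ± 0.244. In the second set clu-36 was highest at 1.02 ± 0.288, followed by clu-35 at 0.51, clu-33 at 0.40 and clu-28 at 0.36. The lowest were clu-47 at -1.16 ± 0.115, clu-14 at -0.80 ± 0.168, clu-57 at -0.60 ± 0.278 and clu-85 at -0.53 ± 0.171. Without the 3 libraries these 16 values kept their sign. Those that moved most as a ratio were the second set of clu-28, at 0.76, and the first sets of clu-33 and clu-24, at 0.22 and 0.13.

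Clu-47 was low in old heads in both sets. Its second set stood at 0.110, 0.148 and 0.460 RPM in the young and 0.0384, 0.0596 and 0.245 in the old. Without the 3 marked libraries these ranges became 0.110 to 0.194 and 0.0384 to 0.0869 and did not overlap. Its first set had medians of 0.149 and 0.0966 RPM. The second set of clu-14 stood at 1.08, 1.47 and 11.2 RPM in the young and 0.647, 0.823 and 7.18 in the old, each highest value from a marked library. The first set of clu-38 had a median of 0.0766 RPM in the young and 0.0129 in the old, with 2 old libraries at 0. The second set of clu-36 held small counts, 5.87 per library on average, with medians of 0.0493 and 0.0962 RPM and overlapping ranges, while its first set had medians of 3.05 and 2.77.

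Of the 27 clusters tested in both sets, 20 had the same sign in both. Without the 3 libraries 54 member values passed the filter in place of 68, and 6 were called higher and 11 lower. The base changed and age chose the clusters, so nothing is read from these counts. The first set of clu-21 was -0.36 ± 0.169 with all libraries and -0.54 ± 0.069 without them, and the second set of clu-86 was -0.28 ± 0.113 and -0.45 ± 0.065. Old minus young values shift with the scale, since the median over all 85 values was 0.01 with TMM factors, -0.10 with library totals alone and -0.22 with the authors' RPM total.

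**Figure D5:**
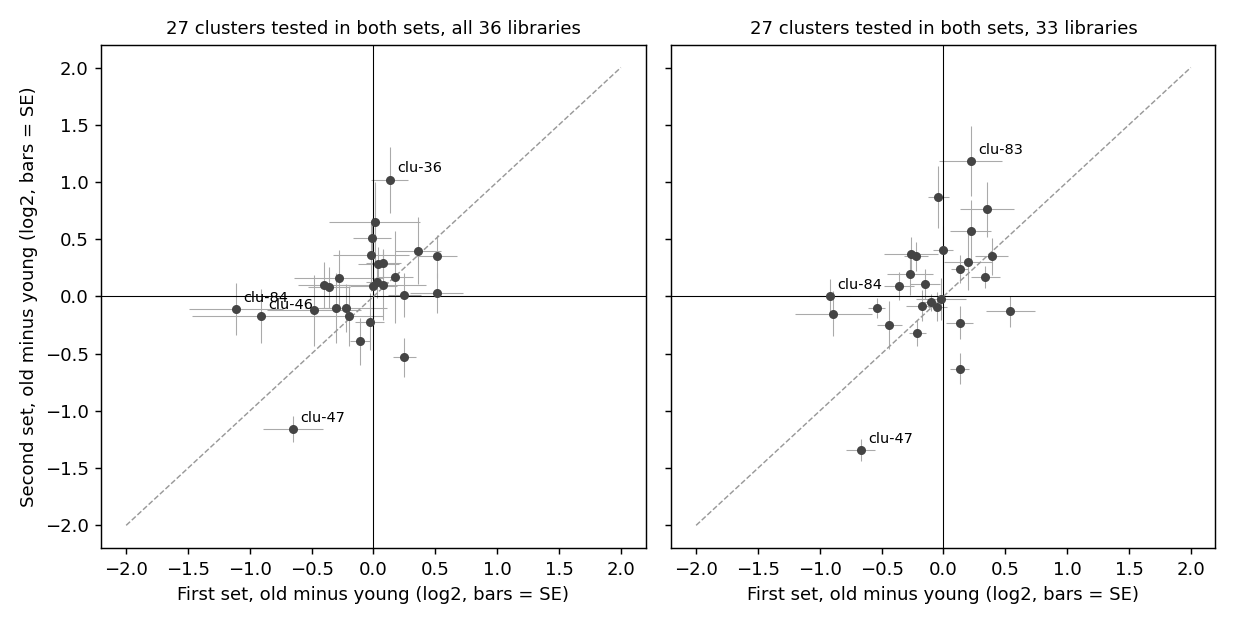
Old minus young difference (log2, bars are SE) of the 27 clusters tested in both sets, first set on the x axis and second set on the y axis, with all 36 libraries at left and 33 libraries at right. Clu-47 lies low in both sets at -0.65 and -1.16, and clu-36 lies high in the second set alone at 1.02.

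The filter was passed in neither set by 6 clusters, clu-5, clu-23, clu-37, clu-54, clu-65 and clu-78. Their mean counts per library ran from 0.102 for clu-65 to 2.58 for clu-37 in the first set and from 0.0351 for clu-78 to 1.0 for clu-5 in the second. They were not tested for rhythm or age.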

How the data were processed

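The authors deposited expected counts per piRNA cluster and per miRNA, in which 81.97% of the piRNA cells hold fractions, and the same piRNA values as RPM, reads scaled to a library total. That total came to 36.5 to 91.6 M reads, and the sources used here do not say which reads it holds, or what the word adjusted in the table names means. Bowtie and the BDGP6 and dm6 builds are listed per the submitters' processing notes, with no versions. The 18 count and piRNA RPM tables used held 0 columns of other samples. RPM tables of miRNAs were not used.

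Expected counts were rounded and fitted in R 4.3.3 with edgeR 4.0.16 (filterByExpr over the 12 groups, TMM factors, glmQLFit), over both sets together, with adjusted p-values over all 85 values. Alternatives used DESeq2 1.42.0 and limma 3.58.1 on log2(RPM + 1) or log2(RPM + 0.1). The scripts were tested on simulated data. Figures were drawn with matplotlib 3.10.9. Replicates differed beyond counting noise in all 36 within-group pairs, where chi-square divided by its degrees of freedom was 1.82 or more. PCR reads carry no molecular identifiers, so counts are not independent molecules. Named clusters were the 6 largest shares per set, the 4 highest and 4 lowest ratios, the rhythm values of smallest p, and the 4 highest and 4 lowest age values per set. The members, lists and tests were chosen with earlier results of these data known. The alternatives without 6 libraries, without 3 libraries at fixed values, with time point as a factor and those 3 left out, and with shares over the 47 clusters alone were chosen after seeing the data.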

Additional observations from a re-analysis of the deposited data

Results flagged for a closer look

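The rhythm of the second set of clu-29 differed between young and old heads by the test of the difference itself, with an adjusted p of 0.0463 in edgeR, the only value of 85 to do so. Young ZT4 replicate 3 and young ZT8 replicate 3 stood at 0.555 and 0.667 RPM and old ZT0 replicate 1 at 0.359, while the other 33 libraries lay between 0.0171 and 0.151. The fitted peaks, ZT6.6 in the young and ZT22.9 in the old, lie beside the times of those libraries. The call was lost in 41 of its 48 alternatives, among them the fit without these 3 libraries. The second set of clu-29 passed the count filter only through them.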

How the results depend on the processing

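Young rhythms were called in 33 members. They were called in 11 with DESeq2, in 0 with limma at either pseudocount, in 17 with time point as a factor, in 1 without the 3 libraries, in 2 with both of these changes, and in 0 both without 6 libraries and without the 3 at fixed values, the last 3 chosen after seeing the data. Leaving out 1 library at a time gave 1 to 36, and young ZT8 replicate 3, young ZT4 replicate 3 and young ZT20 replicate 1 moved the count by over 1.5 times. Old rhythms were called in 0 members throughout, leave-one-out fits included (0 to 0), except for 3 with time point as a factor, which were 0 when the 3 libraries were also left out. A rhythm difference was called in 1 member. It was called in 0 with RLE factors, the RPM total, no filter, DESeq2, limma, time point as a factor and each exclusion of 3 or 6 libraries, in 26 with library totals alone, in 3 with each set fitted separately, and in 0 to 7 when 1 library was left out. The cause of these changes was not tested.

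Age calls numbered 3 higher and 7 lower among 68 member values, of which 54 passed the filter without the 3 libraries. Age chose the clusters, so nothing is read from these counts. Higher calls were 1 with the RPM total and with DESeq2, 5 at a mean of 10 CPM, 6 without the 3 libraries, 7 without 6 and 8 at fixed values, and 1 to 5 with 1 library left out (13 libraries moved it by over 1.5 times). Lower calls were 4 with library totals alone, 2 with each set fitted separately, 11 without the 3, 16 without 6 and 15 at fixed values, and 4 to 15 with 1 library left out, 15 being without old ZT0 replicate 1. The larger share lay in the first set for 5 members and in the second for 36 in every fit with 1 library left out. TMM factors gave 11 in the first set, and RLE factors 14 in the first and 23 in the second. These second-set counts were not reduced by the 9 clusters listed at 0 in the first set. Of 38 ratios, 30 lay above 1 at each pseudocount and 29 without the 3 libraries. Single named values lost their call in 156 comparisons with an alternative, gained one in 19 and stayed on the same side of the threshold in 1077. For ratios, staying meant a shift smaller than the SD over the 36 libraries. There were 0 reversals, but a changed sign of an age value called in neither fit was not counted as one. A replicate block gave 22 young and 0 old rhythms, 1 difference, and 3 higher and 5 lower age calls. The labels do not say what a replicate number marks. As 31 of 90 same-number pairs correlated above 0.1, the main fits treated the numbers as not pairing. Hints from the data and not the design go the other way. Of 36 libraries, 19 correlated best with their own number. At every time point the summed first-set RPM of the members was higher in young replicate 1 (635 to 810) than in young replicate 2 (592 to 613). In the old it was lowest in replicate 3 at every time point (530 to 576). Young replicate 3 held no fixed place. Whether the numbers pair samples was thus not settled. Second-set counts of a few per library limit the low clusters.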
